A study of Oncorhynchus mykiss with 8 samples.

Results

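Matrix metalloproteinase 2 (MMP2) was followed in white muscle of large and small rainbow trout (Oncorhynchus mykiss) through the 2 probes that carry its name, probe IDs A_05_P249954 and A_05_P409312, of 43603 probes on the array. The probes were chosen by their name, which the study gave them in its list of genes up-regulated in large fish of the Dec. lot. Membership was therefore selected on the Dec. values, and the Dec. ratios and the difference between lots are described here without a test. Only the Sept. ratios, which that list did not use, were tested. For both probes the study also marks that the array's maker had assigned another gene, so the name rests on the study's own sequence match. The platform annotation used here names neither probe, and whether both measure the same transcript is not known.

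MMP2, also called gelatinase A, is a secreted zinc protease of connective tissue. It cleaves denatured collagen (gelatin) and the type IV collagen of basement membranes. Fibroblasts and other mesenchymal cells make it as an inactive proenzyme, which in mammals is activated at the cell surface by membrane-type metalloproteinases together with the inhibitor TIMP2. In muscle it is known for its part in the turnover of the matrix around fibres during growth and repair.

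The fish came from the Lyndon strain and were immature juveniles a little over 1 year old. The Dec. lot and the Sept. lot had different parents, and each lot was a set of families sharing 1 sire. Groups were large and small fish within each lot, and mRNA of 5 fish of a size class, 1 per family, was pooled. The study took the 2 largest and 2 smallest fish of each family and pooled them by size rank. Pools of the largest fish were set against the next to smallest, and pools of the next to largest against the smallest. The pool pairs of a lot therefore hold sibs of the same families with different size ranks. Each size class of a lot held both sexes, and the sexes within a single pool are not given. Each large pool was hybridised with a small pool of the same lot on 2 arrays with Alexa Fluor 555 and Alexa Fluor 647 exchanged, which gave 2 pool pairs and 4 arrays per lot and 8 arrays in all. Both arrays of a swap carry the same RNA, and their mean was used as 1 replicate, which leaves n = 2 pool pairs in each lot. With this few pools the p-values measure the spread between pools and arrays, not between single fish.

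Values are log2(large/small) as deposited, with the sign turned, and values above 0 therefore mean more transcript in large fish. That direction is likely rather than stated, and was taken from the sign that probes of the study's lists had on these arrays. That the columns of swapped arrays had already been turned is likewise inferred. The means of the swaps and the dye differences below rest on it. The ratios hold no level of a transcript, so neither the abundance of MMP2 nor the muscle markers of the tissue could be read, and in pooled tissue more cells that make a transcript and more transcript per cell cannot be told apart. Each array had between 41909 and 43249 probes with a value, and the standard deviation of the ratios ran from 0.29 to 0.60 on the log2 scale. Arrays of a swap correlated at -0.28 and 0.50 in Dec. pool pairs 1 and 2, and at -0.19 and -0.12 in Sept. pool pairs 1 and 2, across the 38488 probes with a value on every array. A negative correlation means that across probes the ratios on those arrays tended to reverse, not to repeat, when the dyes were exchanged.

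In the Dec. lot both MMP2 probes had higher ratios in large fish on each of the 4 arrays. Probe A_05_P249954 read 1.32 and 0.28 in pool pair 1, with the large fish in Alexa 555 and in Alexa 647 in that order, and 1.09 and 0.61 in pool pair 2. Probe A_05_P409312 read 1.60 and 0.29 in pool pair 1 and 0.93 and 0.95 in pool pair 2, in the same order of dyes. Both probes were lowest on the same array, that of pool pair 1 with the large fish in Alexa 647. On that array 10.3% of all probes were at least as high as A_05_P249954 and 9.92% at least as high as A_05_P409312. On the other 3 Dec. arrays these shares lay between 1.46% and 5.22%.

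Averaged over each swap, the Dec. pool pairs were close to each other. Probe A_05_P249954 was 0.80 in pool pair 1 and 0.85 in pool pair 2, a mean of 0.83 ± 0.10 (SE of the fit, n = 2 pool pairs), or 1.77-fold higher in large fish. Probe A_05_P409312 was 0.94 in both pool pairs, a mean of 0.94 ± 0.09, or 1.92-fold. The SD between pool pairs was 0.035 for A_05_P249954 and 0.004 for A_05_P409312, while the SD over the 4 arrays was 0.47 and 0.54. The agreement of the pool pairs thus comes after averaging arrays that differed far more from each other. Of 39770 probes measured on the 4 Dec. arrays, 615 had a mean as high as A_05_P249954 and 454 one as high as A_05_P409312. In that lot 6.54% of all probes passed the study's threshold (unadjusted p up to 0.05 and at least 1.2-fold) upward in limma's fit, and since this contrast chose the members, nothing is read from their place among them. On the mean over the 4 arrays, the probe just inside the p limit was 0.39 and the probe just outside it 0.48. That limit is on p, from the methods' t-test as rerun here. It does not order probes by ratio and gives no margin for the MMP2 ratios.

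**Figure D1:**
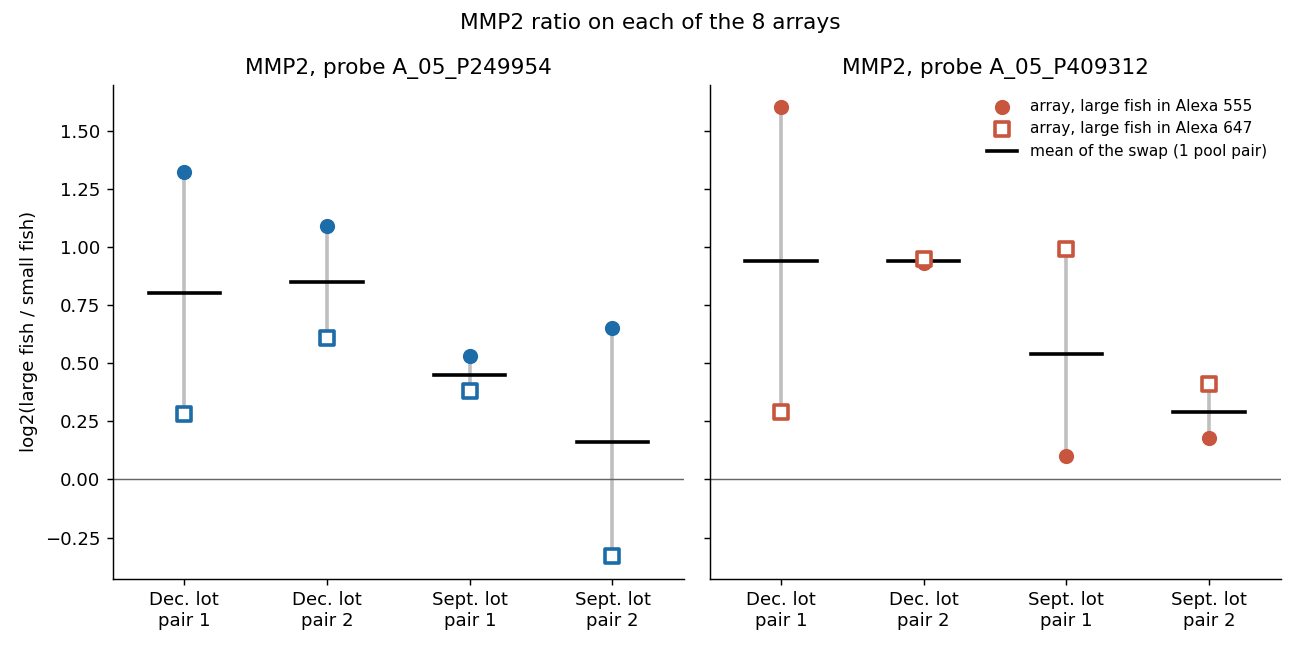
log2(large/small) of the MMP2 probes on each array, by lot and pool pair on the x axis. Filled circles are arrays with the large fish in Alexa 555, open squares arrays with the large fish in Alexa 647, and black bars the mean of a swap. All 8 Dec. points lie above 0, and 1 of the 8 Sept. points lies below 0.

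In the Sept. lot the ratios were again mostly above 0 but smaller, and the probes did not follow the same arrays. Probe A_05_P249954 read 0.53 with the large fish in Alexa 555 and 0.38 with the large fish in Alexa 647 in pool pair 1, and 0.65 and -0.33 in pool pair 2. Its value was thus above 0 on 3 of 4 arrays. Probe A_05_P409312 read 0.10 and 0.99 in pool pair 1 and 0.18 and 0.41 in pool pair 2, in the same order, and was above 0 on all 4. Among the 41524 probes of the Sept. lot, 4.73% were above 0 on all 4 arrays.

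The Sept. pool pairs averaged 0.45 and 0.16 for A_05_P249954 and 0.54 and 0.29 for A_05_P409312, so pool pair 1 had the higher ratio on both probes. The mean of A_05_P249954 was 0.31 ± 0.10 (SE, n = 2 pool pairs), a 1.24-fold higher level in large fish with a 95% interval from 1.02-fold to 1.50-fold. The mean of A_05_P409312 was 0.42 ± 0.09, a 1.34-fold higher level with an interval from 1.12-fold to 1.59-fold. Neither passed the test across all probes (limma, Benjamini-Hochberg adjusted p = 0.9996 for each), and 0% of the 41524 probes did. An unadjusted limma p under 0.05 was reached by 1482 probes, only 3.57% of them all. Before adjustment both MMP2 probes met the study's threshold upward in this fit, as 1.16% of all Sept. probes did. The fit shares its spread between the lots, so these SEs and intervals draw on the small spread of the Dec. pool pairs. Those pairs hold the arrays on which the probes were chosen, so the Sept. test is not fully free of that choice. The SD between the Sept. pool pairs was 0.206 for A_05_P249954 and 0.176 for A_05_P409312. With the Sept. lot fitted alone, only A_05_P409312 met that threshold, as 1.75% of probes did. The intervals were then 1.00-fold to 1.53-fold for A_05_P249954, reaching just below no difference, and 1.09-fold to 1.63-fold for A_05_P409312 (limma adjusted p = 0.923 for each). Neither met the threshold under the methods' own test on single arrays. By size alone, 3.10% of Sept. probes had a mean as high as A_05_P249954 and 1.62% one as high as A_05_P409312.

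Pool pair 1 carried more of the Sept. ratio. Without Sept. replicate 1 the mean of A_05_P249954 was 0.16, and without Sept. replicate 2 it was 0.45. The same omissions left A_05_P409312 at 0.29 and 0.54. With only 1 Sept. pool pair kept, the fit assumed that it varies like the Dec. pairs. The adjusted p stayed between 0.788 and 1 over the 11 alternatives run for each probe.

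The dye orientation moved the probes differently. With the large fish in Alexa 555, A_05_P249954 was higher than with the large fish in Alexa 647 in all 4 pool pairs, by 1.04 and 0.48 in Dec. pool pairs 1 and 2 and by 0.15 and 0.98 in Sept. pool pairs 1 and 2. The mean difference was 0.66 ± 0.19 (SE, n = 4 pool pairs). Among 38488 probes, 6.84% had a mean difference of at least that size in either direction. The Dec. pool pairs among them are those on which the probes were chosen, so the difference is described and was not tested. For A_05_P409312 the difference was 1.31 and -0.02 in Dec. pool pairs 1 and 2 and -0.89 and -0.23 in Sept. pool pairs 1 and 2. Its mean was 0.04 ± 0.36, over differences of both signs. The size of these gaps can be read against the size effect itself. In Dec. pool pair 1 exchanging the dyes changed A_05_P409312 by more than its mean log2 ratio, and in Sept. pool pair 2 it turned the sign of A_05_P249954.

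**Figure D2:**
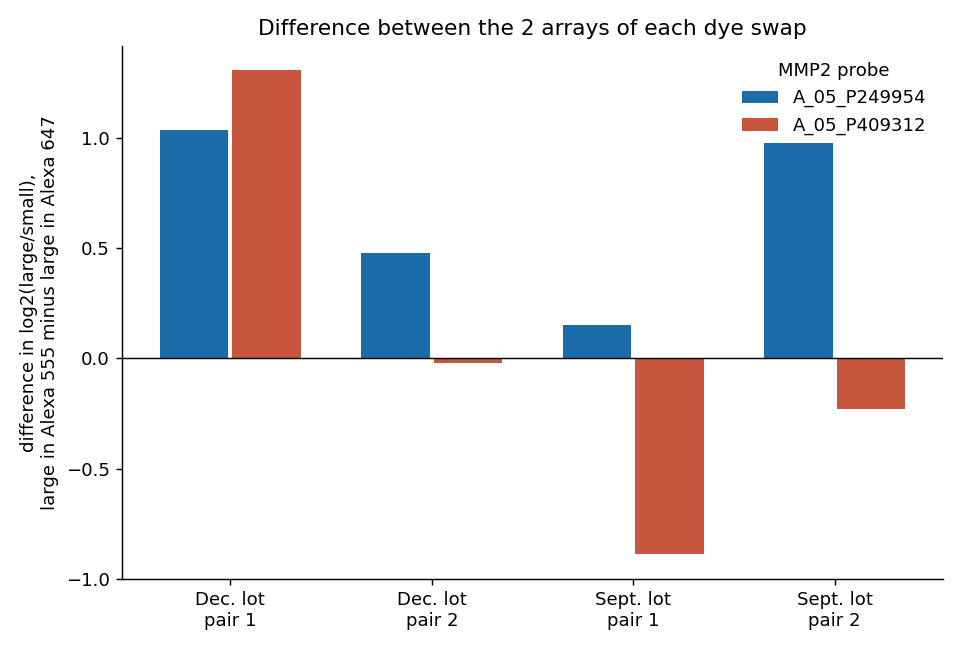
Difference in log2(large/small) between the arrays of each swap, large fish in Alexa 555 minus large fish in Alexa 647, by lot and pool pair, for both MMP2 probes. The bars of A_05_P249954 lie above 0 in all 4 pool pairs (0.15 to 1.04), and those of A_05_P409312 run from -0.89 to 1.31.

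Set against each other, the probes came within 0.14 once a swap was averaged. A_05_P409312 minus A_05_P249954 was 0.14 and 0.09 in Dec. pool pairs 1 and 2 and 0.09 and 0.13 in Sept. pool pairs 1 and 2, so A_05_P409312 was slightly higher in each. On single arrays the same difference ran from -0.17 to 0.34 in the Dec. lot and from -0.47 to 0.74 in the Sept. lot. In the Sept. lot it was below 0 on both arrays with the large fish in Alexa 555 (-0.43 and -0.47) and above 0 on both with the large fish in Alexa 647 (0.61 and 0.74). The root mean square difference between the probes over the 8 arrays was 0.44. Of the probes on all 8 arrays, 311 ran closer to A_05_P249954 than A_05_P409312 did, and 198 ran closer to A_05_P409312 than A_05_P249954 did.

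Between the lots, the size effect was larger in Dec. than in Sept. on both probes. Dec. minus Sept. was 0.52 ± 0.14 for A_05_P249954 and 0.52 ± 0.13 for A_05_P409312 (SE), 1.43 and 1.44 times the Sept. ratio of large to small fish. Both Dec. pool pairs lay above both Sept. pool pairs on each probe, as they did for 19.9% of all probes on the 8 arrays, but the members were chosen for high Dec. values and this order is only described. On single arrays the lots overlapped, since the lowest Dec. values (0.28 and 0.29) lay below the highest Sept. values (0.65 and 0.99). The difference of A_05_P409312 depended on the dye. It was 1.13 on arrays with the large fish in Alexa 555 and -0.08 on arrays with the large fish in Alexa 647, where Dec. averaged 0.62 and Sept. 0.70. For A_05_P249954 the corresponding differences were 0.62 and 0.42. Without the Dec. pool pair 1 array with the large fish in Alexa 647, the Dec. mean was 1.09 for A_05_P249954 and 1.27 for A_05_P409312, and Dec. minus Sept. was 0.78 and 0.85. Season, parents, sampling date and body weight differ together between the lots and cannot be told apart. The study found the Dec. fish heavier, and the weights of its large and small pools also stood in a different ratio in each lot.

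The other probes of the protease families and of the matrix that MMP2 acts on were taken from named lists. Their SEs, given below, come from the fit that shares its spread between the lots, so an SE does not describe its lot alone. Most of these names come from the study's own lists, so 18 of 29 such probes had been picked on these Dec. arrays and their direction there is not independent. In the Dec. lot 12 of 29 passed the study's threshold upward and 7 downward in limma's fit, against 6.54% and 7.59% of all probes. Of the 29, 0 had an adjusted p under 0.05, and the median of the 29 was 0.03 against -0.012 for all probes. In the Sept. lot 3 of 26 passed upward and 2 downward, against 1.16% and 1.63% of all probes, 0 after adjustment, with a median of 0.07 against -0.005. Both Sept. downward probes, thrombospondin 2 and thrombospondin 4, had been listed by the study in small Sept. fish. Of the 21 probes not on its Sept. lists 3 passed upward and 0 downward. These 3, PRSS23 and collagen type I alpha 1 and alpha 2, were on its Dec. list for large fish and are not free of that selection. Cathepsin M, fibronectin and extracellular matrix protein 1, which it had listed in large Sept. fish, did not pass in this fit. Of the 11 probes not on its Dec. lists, 1 passed upward and 1 downward, with a median of -0.02.

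Among matrix metalloproteinases, collagenase 3, which cleaves fibrillar collagen, was closer to MMP2 than MMP9 was in both lots. Collagenase 3 (A_05_P327062) read 0.88 and 0.54 in Dec. pool pair 1 and 1.61 and 1.22 in Dec. pool pair 2, against 0.18 and 0.40 and then 0.35 and 0.25 in Sept. pool pairs 1 and 2. Its means were 1.06 ± 0.19 in Dec. and 0.30 ± 0.19 in Sept., where limma's adjusted p was 0.9996. It was above 0 on all 8 arrays, like A_05_P409312. MMP9, the other gelatinase and a product mainly of leukocytes in mammals, went the other way. MMP9 (A_05_P280437) was below 0 on all 8 arrays, with means of -0.60 ± 0.09 in Dec. and -0.15 ± 0.09 in Sept. (limma adjusted p = 0.9996). Both genes had been listed by the study for Dec. muscle, collagenase 3 in large and MMP9 in small fish.

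The plasminogen system, which in mammals can activate metalloproteinases outside the cell, was split. Plasminogen activator inhibitor 1 (A_05_P285012), which blocks the activators, was above 0 on the 4 Dec. arrays with a mean of 0.87 ± 0.19, and averaged 0.07 ± 0.19 in Sept. Tissue-type plasminogen activator (A_05_P464162), which turns plasminogen into plasmin, was below 0 on the 4 Dec. arrays with a mean of -0.47 ± 0.12 and averaged 0.11 ± 0.12 in Sept. The secreted serine protease PRSS23 (A_05_P425157), listed by the study in large Dec. fish, was 0.96 ± 0.08 in Dec. and 0.48 ± 0.08 in Sept. In limma's fit it was the only probe of this list past the study's threshold in Sept. (adjusted p = 0.9996). Its Sept. arrays read -0.28 and 1.16 in pool pair 1 and 0.16 and 0.88 in pool pair 2, so it too was higher with the large fish in Alexa 647. Zinc metalloproteinase C was -0.64 ± 0.13 in Dec. and -0.11 ± 0.13 in Sept., and papilin, a matrix protein with inhibitor domains, was -0.02 ± 0.13 in Dec.

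Fibrillar collagen, the source of the gelatin that MMP2 degrades, had positive ratios beside it. Collagen type I alpha 1 (A_05_P430717) averaged 0.81 ± 0.19 in Dec. and 0.58 ± 0.19 in Sept. Collagen type I alpha 2 (A_05_P413407) averaged 0.77 ± 0.13 in Dec. and 0.61 ± 0.13 in Sept. In limma's fit these 2 chains were the only matrix probes past the study's threshold upward in Sept. (adjusted p = 0.9996 for each). The study's own Sept. list for large fish held other matrix proteins, given below. The Dec. lists did not use the Sept. ratios. Both chains were on the Dec. list for large fish, however, and the fit shares its spread between the lots. Passing the threshold in Sept. is therefore not free of the Dec. selection. In Sept. both were lower with the large fish in Alexa 555, and the sign changed with the dye in pool pair 1 only. With the large fish in Alexa 647, alpha 1 read 1.37 and 1.82 in pool pairs 1 and 2, and with the large fish in Alexa 555 it read -0.87 and 0.02. Alpha 2 read 1.35 and 1.47 with the large fish in Alexa 647, and -0.58 and 0.20 with the large fish in Alexa 555. The Sept. arrays of A_05_P409312 were ordered the same way and those of A_05_P249954 the opposite way.

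Other matrix proteins varied more. Collagen alpha-1 chain-like was 0.85 ± 0.10 in Dec. and 0.12 ± 0.10 in Sept., and the latent TGF-beta binding protein LTBP1, which stores that growth factor in the matrix, was 0.64 ± 0.14 and 0.28 ± 0.14. Fibronectin and extracellular matrix protein 1 were high in 1 Dec. pool pair. Fibronectin was at 0.24 in pool pair 1 and 2.93 in pool pair 2, and extracellular matrix protein 1 at 0.55 and 4.28. In Sept. pool pairs 1 and 2 fibronectin read 0.55 and 0.53, and extracellular matrix protein 1 read 0.87 and 0.78. Both were above 0 on all 4 Sept. arrays, and the study had listed both in large Sept. fish. Their shared SEs (0.65 and 0.91) mostly reflect the Dec. pairs, and neither passed the study's threshold in Sept. in limma's fit. The collagen-binding proteoglycans lumican and decorin were -0.34 ± 0.11 and -0.13 ± 0.15 in Dec. The basement membrane chain laminin subunit alpha-3 was -0.74 ± 0.09 in Dec. and 0.01 ± 0.09 in Sept. Lumican and laminin subunit alpha-3 had been listed by the study in small Dec. fish. Laminin subunit beta-2, which it had not listed, was -0.03 ± 0.10 in Dec. and 0.16 ± 0.10 in Sept. Lysyl oxidase, which cross-links collagen, averaged -0.12 ± 0.16 in Dec. and 0.07 ± 0.16 in Sept. Thrombospondin 2, which in mammals helps clear MMP2 from the pericellular space, was -0.49 ± 0.43 in Dec. and -1.59 ± 0.43 in Sept., and its Sept. value lay mostly in pool pair 1 (-2.46, against -0.72 in pool pair 2). Its Dec. pool pairs read -0.51 and -0.47, so the shared SE mostly reflects the Sept. pairs. The study had listed thrombospondin 2 in small fish of both lots.

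The lysosomal proteases of the cathepsin list went to both sides of 0. In Dec. cathepsins D, B and L were 1.32 ± 0.26, 0.96 ± 0.13 and 0.80 ± 0.12. In Sept. they were -0.16 ± 0.26, 0.00 ± 0.13 and -0.03 ± 0.12. None of the 6 probes of the list passed the study's threshold in Sept. in limma's fit. Cathepsin M was 2.59 ± 0.89 in Dec., where pool pair 1 read 0.78 and pool pair 2 read 4.40, and 1.34 ± 0.89 in Sept., where the study had listed it in large fish. Its Sept. pool pairs read 1.0 and 1.67, so the shared SE mostly reflects the Dec. pairs. The cysteine protease legumain was -0.53 ± 0.08 (A_05_P275684) and -0.33 ± 0.16 (A_05_P382032) in Dec., and -0.03 ± 0.08 and 0.06 ± 0.16 on the same probes in Sept.

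**Figure D3:**
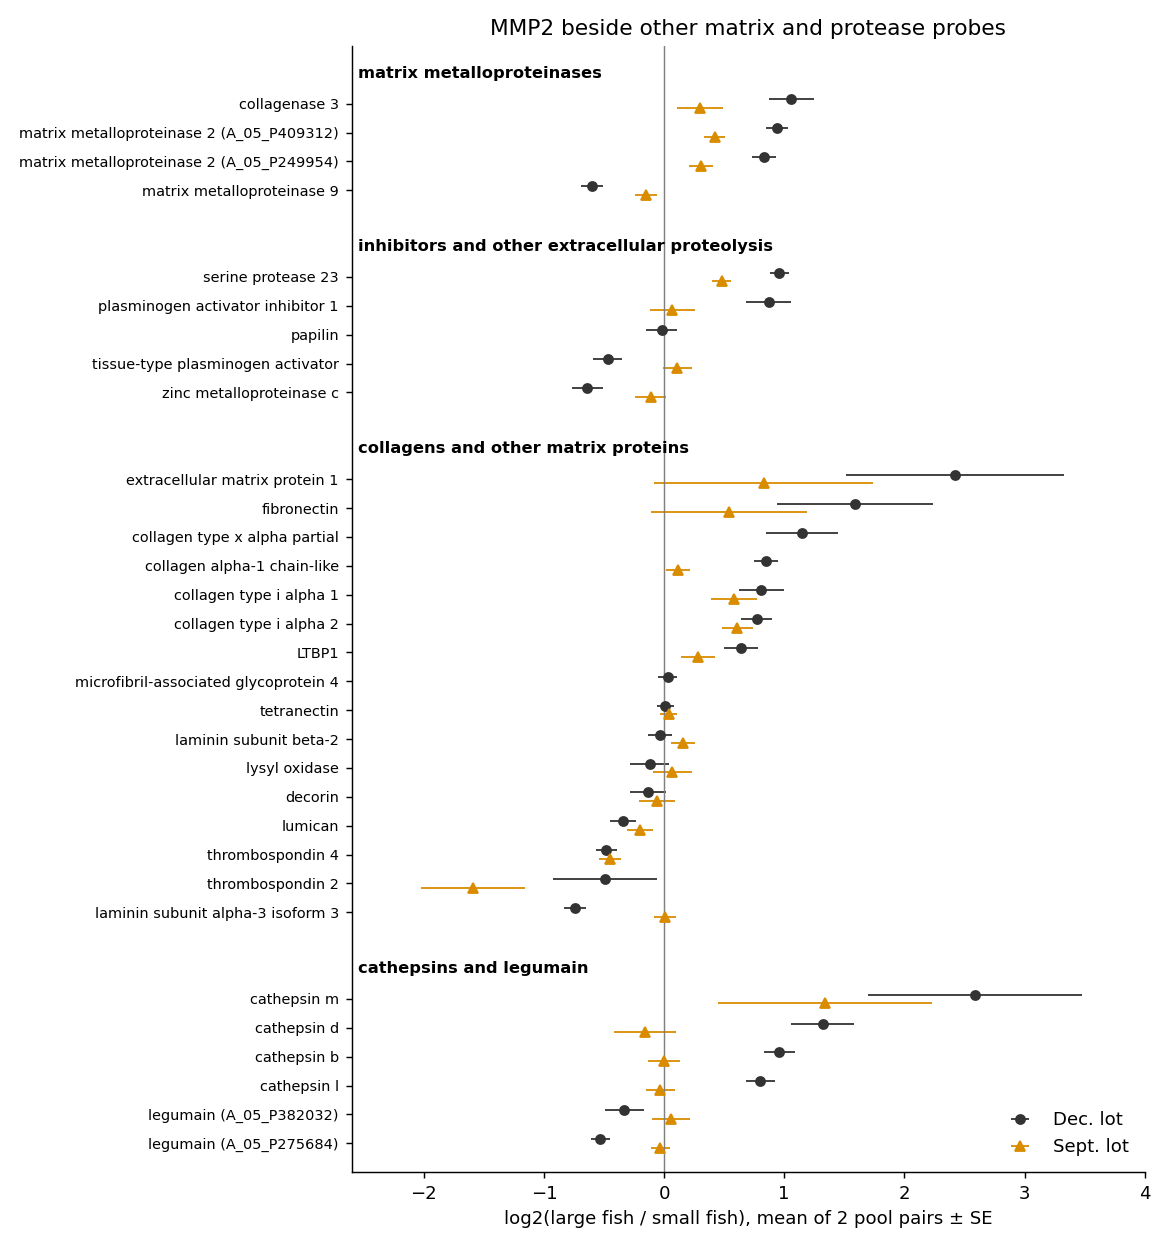
log2(large/small) of the MMP2 probes and of 29 other probes of 4 lists (mean of 2 pool pairs, bars are the SE of limma's fit, which shares its spread between the lots). Circles are the Dec. lot and triangles the Sept. lot. The MMP2 probes (0.83 and 0.94 in Dec., 0.31 and 0.42 in Sept.) lie between MMP9 and collagenase 3 in Dec.

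Markers of other cells that a muscle plug can hold had ratios away from 0 in the Dec. lot, but most of them carry a name because the study listed them on these arrays. Only 1 of 5 fat cell, 1 of 7 skin, 7 of 18 leukocyte and 0 of 8 slow muscle probes were not on its Dec. lists. Those not listed had medians of 0.02 for fat cell, -0.05 for skin and 0.05 for leukocyte probes. Only ratios were available, so whether a marker was near 0 in level is not known. The counts below stand against 6.54% of all Dec. probes past the study's threshold upward and 7.59% downward. Fat cell probes had a median of 1.15 over 5 probes, with 3 past the study's threshold upward and 1 downward. Skin and epithelium probes had a median of 1.14 over 7, with 4 upward and 2 downward, and leukocyte probes a median of 0.16 over 18, with 8 upward and 3 downward. The 8 slow (red) muscle probes had a median of -1.52 and all 8 passed downward. Red blood cell probes had a median of 1.30 over 15, with 0.06 in pool pair 1 and 2.97 in pool pair 2. Of them 2 passed upward and 2 downward, and the 14 not on the study's Dec. lists had a median of 1.44. Of 15 plasma protein probes, 6 had values on all 4 Dec. arrays. Their median was 1.57, with 0.49 in pool pair 1 and 2.75 in pool pair 2. On single Dec. arrays the median ran from -0.83 to 2.99. Of these 6 probes 4 passed upward and 0 downward, and 0 were on the study's Dec. lists. The Dec. medians of the red blood cell and plasma protein lists lay mostly in pool pair 2, and their cause was not tested. Fibroblasts, the usual source of MMP2, have no list of their own beside the collagens above. In Sept. the medians were 0.15 for fat cell, 0.16 for skin, 0.03 for leukocyte, 0.30 for slow muscle, 0.63 for red blood cell and 0.95 for plasma protein probes. The study's Sept. lists held 6 of the 15 red blood cell and 14 of the 15 plasma protein probes, and the 9 red blood cell probes not listed had a median of 0.04. The part of these tissues in the MMP2 ratio was not tested.

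The named probes that ran nearest to MMP2 were not proteases. Nearness was the root mean square difference from the mean of the MMP2 probes over the 8 arrays, among 38486 other probes with a median distance of 0.80. The nearest of all was hematological and neurological expressed 1 protein (A_05_P452873) at 0.213. It averaged 0.74 in Dec. and 0.24 in Sept. Next among named probes were flna protein (filamin A, an actin cross-linker) at 0.259, 60S ribosomal protein L21 at 0.274, LTBP1 at 0.285 and 40S ribosomal protein S27 at 0.286, with 2, 4, 8 and 9 of all probes closer than each. The study had listed all 5 in large Dec. fish, so their high Dec. ratios were chosen in the same way as those of MMP2. All 5 were lowest among the Dec. arrays on that of pool pair 1 with the large fish in Alexa 647, where they read between 0.06 and 0.43. Of the matrix and protease lists, cathepsin L was at 0.31, plasminogen activator inhibitor 1 at 0.34, collagen alpha-1 chain-like at 0.35 and collagenase 3 at 0.37. Some probes of the leukocyte list lay as near, with c-type lysozyme at 0.31 and arachidonate 5-lipoxygenase-activating protein at 0.36. All of these had also been listed by the study in large Dec. fish. Other probes of the same lists lay far off, such as MMP9 at 1.24, CD83 antigen at 1.0 and a CD209 antigen-like protein D probe (A_05_P290987) at 1.32. Each MMP2 probe lay 0.22 from that mean, but the mean is made of these probes, so this distance cannot be compared with the others. From each other the MMP2 probes lay 0.44 apart.

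**Figure D4:**
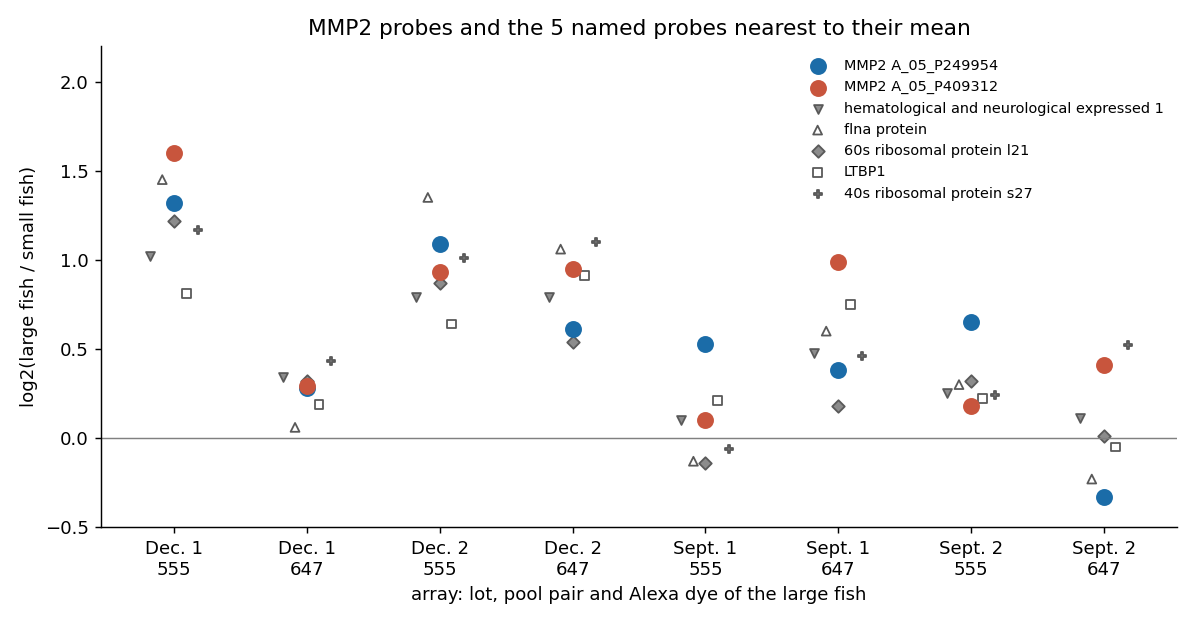
log2(large/small) on each of the 8 arrays for the MMP2 probes (large circles) and the 5 named probes nearest to their mean (grey symbols, slightly offset). On the Dec. pool pair 1 array with the large fish in Alexa 647 the 7 probes lie between 0.06 and 0.43, below their values on the other Dec. arrays.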

How the data were processed

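Muscle mRNA of large and small fish was labelled and hybridised to 2-colour Agilent salmonid arrays. The authors scanned them with a GenePix scanner, excluded poor spots manually, dropped data points whose signal ratio was low and normalised by lowess in GeneSpring GX. The deposited values are log2 ratios, 1 column per array, and 0 columns were left unmapped. Scanner intensities were not analysed here, so precision rests on the pool pairs only, 2 in each lot.

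Every column was negated. Read this way, 966 of 966 listings of the study's muscle lists had the listed sign on the mean of their lot's arrays. Those lists were made from these same arrays, so the agreement only gives the direction in which the study read them. The 60 control features among 43663 rows were dropped. Testing in a lot required values on its 4 arrays. After averaging each swap, limma fitted lot means to the 4 pool pairs (limma 3.58.1, R 4.3.3, lmFit and eBayes, Benjamini-Hochberg over all probes tested, threshold 0.05). The dye difference was fitted likewise over 4 pool pairs, as a description. The fit was tested on simulated data. Named probes were both MMP2 probes, the probes of the 4 matrix and protease lists and the 5 nearest differently named probes. Names came from the study's lists and from the platform annotation (221 symbols). Members and lists were chosen with earlier results of these data known. Alternatives were 1 dye orientation, other centring and scaling, other fits, a replicate block and leaving out each pool pair. Pool pairs with the same number in both lots hold different fish.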

Additional observations from a re-analysis of the deposited data

Results flagged for a closer look

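The MMP2 probes and the 29 matrix and protease probes in each lot gave 62 sets of up to 4 arrays. Microfibril-associated glycoprotein 4, collagen type X alpha and papilin each lacked a value on a Sept. array. Of the 62 sets 1 held an array far from the others, and chance alone marks about 1 in 20. Laminin subunit beta-2 (A_05_P397982) read -0.37 on the Dec. pool pair 1 array with the large fish in Alexa 555, and between 0.05 and 0.13 on the other 3 Dec. arrays. No set of the MMP2 probes was marked.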

How the results depend on the processing

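The Sept. ratios of both MMP2 probes kept their direction under the 11 alternatives run for each, and limma's adjusted p passed 0.05 in 0 of them. On arrays with the large fish in Alexa 555 or in Alexa 647 alone, the Sept. mean was 0.59 or 0.03 for A_05_P249954 and 0.14 or 0.70 for A_05_P409312. The Dec. mean on those arrays was 1.21 or 0.45 for A_05_P249954 and 1.26 or 0.62 for A_05_P409312, and Dec. minus Sept. of A_05_P409312 was 1.13 or -0.08. The cause of these dye differences was not tested. Centring and scaling gave Dec. means of 0.74 and 0.82, and centring alone 0.95 for A_05_P409312. Without the Dec. pool pair 1 array with the large fish in Alexa 647, an alternative chosen after seeing the data, the Dec. means were 1.09 and 1.27, Dec. minus Sept. was 0.78 and 0.85, and the Dec. median of the 4 lists was 0.52. Leaving out each Dec. pool pair gave medians of that list of 0.11 to 0.15, and leaving out each Sept. pool pair left 1 to 2 list probes past the study's threshold downward. With the pool pair number as a replicate block, Dec. minus Sept. was 0.52 for both probes, as without it. Deviations of same-numbered pool pairs correlated at 0.07 across probes. Sept. probes past the study's threshold upward numbered 480 in the limma fit of both lots, 1104 and 785 on arrays with the large fish in Alexa 555 and 647, 727 with each lot fitted alone, 598 to 1269 with a pool pair left out, and 167 and 87 in the methods' test on arrays and on pool pairs, and adjusted calls among all Sept. probes numbered 0 in limma and 0 and 3 in that test. With 2 pool pairs per lot and no intensities, the precision of a single ratio cannot be given.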
